A study of Mus musculus with 9 samples.

Results

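The 10 genes described here carry glucose into the cell and through glycolysis: the glucose transporters Slc2a1 and Slc2a3, the hexokinases Hk1 and Hk2, the phosphofructokinase subunits Pfkp and Pfkm, the aldolase Aldoc, the phosphoglycerate kinase Pgk1, the enolase Eno2 and the lactate dehydrogenase subunit Ldha. Their probe sets were found by gene symbol, with no threshold on a change, but the genes were chosen with earlier results of these data known. All 10 are among the 16770 genes tested, and 202 of their 211 probe sets were bright enough to be used. Neurons were dissociated from the cortex of C57BL/6 mouse embryos at E15 and grown in culture. All cultures received AraC, which kills dividing cells, and on day 5 were exposed to lentivirus for 4 h to deliver a hairpin RNA. The hairpin was shTdp-43-1 or shTdp-43-2, each directed against mouse Tdp-43, or the control hairpin shCont. Cells were harvested on day 11, with 3 Affymetrix Mouse Exon 1.0 ST arrays for each of the 3 hairpins. The labels do not say whether the 3 arrays of a group come from separate cultures, so the p-values measure the spread between these arrays, which may be technical.

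Glucose enters neurons mainly through the high-affinity transporter GLUT3, the product of Slc2a3, while GLUT1, the product of Slc2a1, is typical of the endothelium of brain vessels and of astrocytes. Hexokinase traps glucose as glucose 6-phosphate, phosphofructokinase commits it to glycolysis, and aldolase, phosphoglycerate kinase and enolase lead on to pyruvate, which lactate dehydrogenase interconverts with lactate. Most of these steps have several paralogous enzymes: Hk1, Pfkp, Pfkm and Eno2 are prominent in brain, Eno2 is the neuron-specific enolase, Aldoc is the brain aldolase and is strongest in astrocytes, and Hk2 and Ldha are among the classic genes induced by hypoxia.

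All values are log2 values. The value of a gene on an array is the mean of its probe sets whose mean over the 9 arrays reached the table median of 6.07, and a change is a hairpin group's mean minus the shCont mean. A gene was called where limma's p-value, adjusted by the Benjamini-Hochberg method over all 16770 genes, was under 0.05. Tardbp, which encodes Tdp-43, had values of 7.84, 8.23 and 8.55 with shTdp-43-1, of 8.22, 8.58 and 7.90 with shTdp-43-2, and of 9.77, 9.94 and 10.06 with shCont. Its level was 30.4% of the shCont level with shTdp-43-1 and 30.9% with shTdp-43-2. The gene values of any 2 arrays in the same group had a Pearson r of at least 0.985, across genes, which are not independent replicates.

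Of 110 probe sets of 6 neuronal markers, among them Tubb3, Map2 and Syt1, 109 reached the table median. For astrocytes 172 of 193 did so, for the oligodendrocyte lineage 100 of 104 and for progenitors and dividing cells 151 of 169. For fibroblasts and pericytes it was 265 of 354, for microglia 61 of 102 and for blood cells 19 of 69. For endothelial cells it was 97 of 215, where single markers ranged from 0 of 22 probe sets (Slco1a4) to 9 of 11 (Esam). Among all 318760 probe sets with 1 gene symbol, 248701 reached the median in tested genes. Reaching it therefore does not by itself show that a cell type was present. Summed over the 9 astrocyte markers on the linear scale, the level was 12310 to 12750 with shTdp-43-1 and 11310 to 11980 with shTdp-43-2, against 12700 to 15060 with shCont. The sum over 9 fibroblast and pericyte markers was 3589 to 3733 with shTdp-43-1 and 2825 to 3098 with shTdp-43-2, against 4340 to 4400 with shCont. That sum follows a few bright genes. Of the 9, limma called 2 lower with shTdp-43-1 (Pdgfrb and Rgs5) and 4 with shTdp-43-2 (Dcn, Fn1, Pdgfrb and Rgs5). Among all genes 5.96% and 14.1% were called lower. The median change of the list with shTdp-43-1 was 0.13 and with shTdp-43-2 it was -0.007. Over 6 neuronal markers the sum was 22150 to 23930 with shTdp-43-1 and 22460 to 24730 with shTdp-43-2, against 23110 to 25110 with shCont. Of these 6, limma called 1 lower with each hairpin, Nefl (-0.60 ± 0.0912 and -0.45 ± 0.0912, limma adjusted p = 0.00227 and 0.00445). Over 7 endothelial markers the sum was 1017 to 1169 and 1043 to 1201, against 1010 to 1040. Of these 7, 1 was called higher with shTdp-43-2 (Tek) and 0 with shTdp-43-1. No marker of any list was listed at 0. In such bulk samples, fewer cells of a type and less RNA per cell cannot be told apart.

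Among the 10 genes, limma called 1 lower with shTdp-43-1 (Slc2a1) and 3 lower with shTdp-43-2 (Slc2a1, Hk2 and Eno2). It called 0 higher with either hairpin. In the mean of both hairpins the same 3 were called lower, beside 11.9% of all genes called lower, 7.42% higher and 19.3% in either direction. Among all genes 5.96% were called lower and 5.16% higher with shTdp-43-1, and 14.1% lower and 7.76% higher with shTdp-43-2, which makes 11.1% and 21.9% in either direction. At an unadjusted p under 0.05, 5 of the 10 differed with shTdp-43-1, of which 3 were lower, and 4 with shTdp-43-2, of which 3 were lower. The shares above are for adjusted p-values, and no share of all genes at an unadjusted p is given, here or below. Such unadjusted counts therefore cannot be compared with all genes. The median change of the 10 genes with shTdp-43-1 was 0.05 and with shTdp-43-2 it was -0.15, against 0.006 and -0.008 over all genes. Both comparisons use the same 3 shCont arrays.

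**Figure D1:**
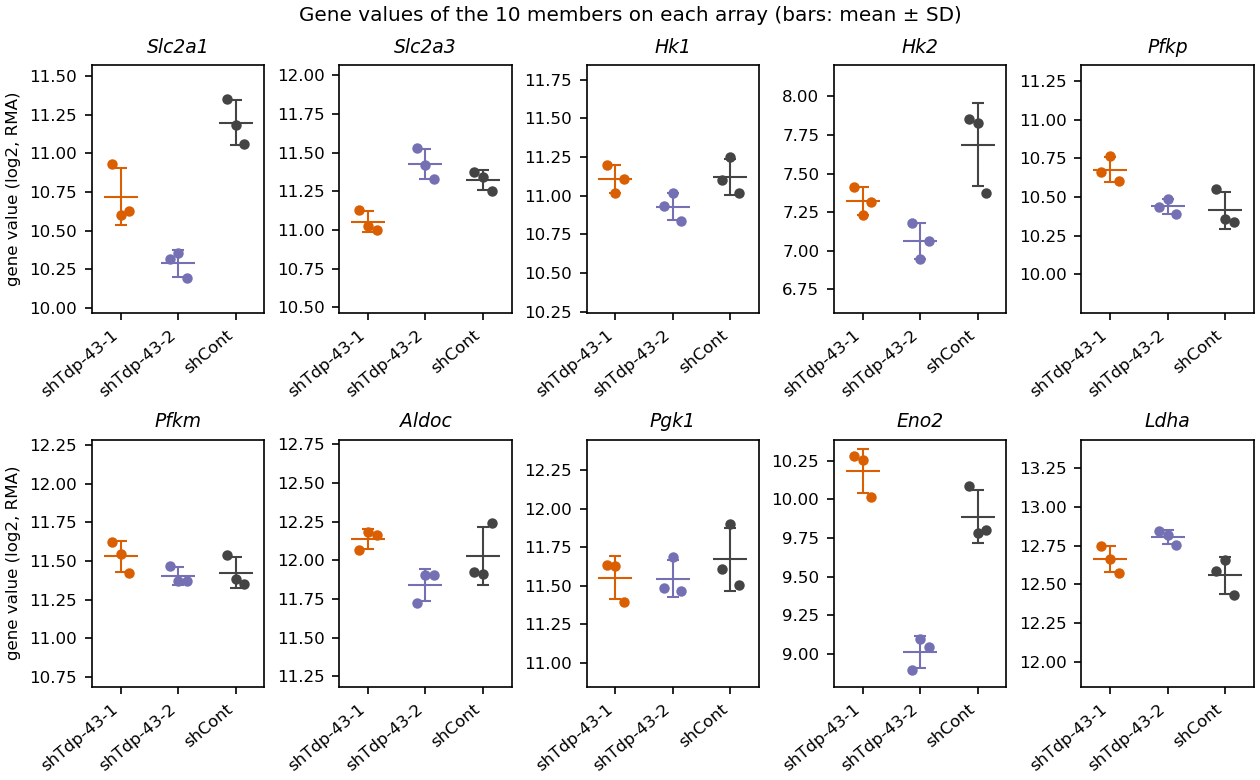
Gene value (log2, RMA) of each of the 10 genes on the 9 arrays, with one panel per gene, 3 points per hairpin, and a bar for the mean ± SD. Every panel spans a range of equal size; all Slc2a1 arrays of both hairpins against Tdp-43 lie below the shCont arrays, and all Eno2 arrays of shTdp-43-2 lie below both other groups.

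Slc2a1 was the member called lower with each hairpin, as were 3.49% of all genes; 2.95% of all genes were called higher with each, and none of the 10 was. Its values were 10.93, 10.60 and 10.63 with shTdp-43-1, 10.32, 10.36 and 10.19 with shTdp-43-2, and 11.35, 11.18 and 11.06 with shCont. Every array of either hairpin lay below every shCont array, and every shTdp-43-2 array lay below every shTdp-43-1 array. The level was 71.7% of the shCont level with shTdp-43-1 (a change of -0.48 ± 0.108, SE, with a limma adjusted p = 0.0167) and 53.2% with shTdp-43-2 (-0.91 ± 0.108, limma adjusted p = 0.000179). The hairpins differed from each other by -0.43 ± 0.108 (shTdp-43-2 minus shTdp-43-1, limma adjusted p = 0.0244). The summed astrocyte markers and the summed fibroblast and pericyte markers given above were also lowest with shTdp-43-2, although 5 of 9 markers of each list were not called there. For the astrocyte list the median change with shTdp-43-1 was -0.04 and with shTdp-43-2 it was -0.17. Their part in the change of Slc2a1 was not tested.

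The fall of Slc2a1 was shared by its probe sets, whose places on the transcript were not analysed here. All 10 were lower with each hairpin, by log2 changes from -0.64 to -0.26 with shTdp-43-1 and from -1.16 to -0.63 with shTdp-43-2. The call with shTdp-43-1 was lost when shCont replicate 1 (adjusted p = 0.0775), shCont replicate 2 (0.055), shTdp-43-1 replicate 2 (0.064) or shTdp-43-1 replicate 3 (0.068) was left out, while the call with shTdp-43-2 was kept in all 19 other settings.

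Over the 9 arrays, the 5 tested genes whose values relative to shCont lay closest to those of Slc2a1 were Ptpru, Plxnd1, Itga3, Palmd and Pigm, with root mean square differences of 0.0755 to 0.0892 on the log2 scale. Ptpru, a receptor tyrosine phosphatase, changed by -0.45 (shTdp-43-1) and -0.99 (shTdp-43-2), and Palmd, which encodes palmdelphin, by -0.50 and -0.85. Plxnd1, a semaphorin receptor, changed by -0.39 and -0.99.

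Slc2a3 moved apart from Slc2a1 with shTdp-43-2, while the means of both were lower than in shCont with shTdp-43-1. Its values were 11.13, 11.03 and 11.00 with shTdp-43-1, 11.53, 11.42 and 11.33 with shTdp-43-2, and 11.38, 11.34 and 11.25 with shCont. The shTdp-43-1 arrays lay below all shCont arrays and the shTdp-43-2 arrays overlapped them. Neither change was called: -0.27 ± 0.0822 with shTdp-43-1 (limma adjusted p = 0.0565) and 0.10 ± 0.0822 with shTdp-43-2 (limma adjusted p = 0.421). The difference between the hairpins was called, with Slc2a3 higher by 0.37 ± 0.0822 with shTdp-43-2 than with shTdp-43-1 (limma adjusted p = 0.0134). Of its 15 usable probe sets, all 15 were lower with shTdp-43-1 and 10 were higher with shTdp-43-2.

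The ratio of Slc2a1 to Slc2a3 on one array, as a log2 difference relative to its shCont mean, was -0.08, -0.30 and -0.25 with shTdp-43-1, -1.09, -0.94 and -1.02 with shTdp-43-2, and 0.10, -0.03 and -0.06 with shCont. All 6 hairpin arrays lay below the 3 shCont arrays. The mean of both hairpins differed from that of shCont by -0.61 (exact two-sided permutation test of 6 against 3 arrays, p = 0.0238, adjusted over 3 pairs 0.0357). The test pools both hairpins, whose differences from shCont were unlike (-0.21 with shTdp-43-1 and -1.01 with shTdp-43-2). Its 84 arrangements allow a smallest p of 0.0119. Leaving out any 1 array raised the adjusted p above 0.05, but fewer arrangements then remain and the smallest possible p is larger. Taking the median of the probe sets, which keeps all arrangements, also raised it (adjusted p = 0.179).

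Both hexokinases of the group were measured, Hk1 as the main brain form and Hk2 as the insulin-responsive and hypoxia-inducible form. Hk2 had values of 7.41, 7.23 and 7.32 with shTdp-43-1, 7.18, 6.95 and 7.06 with shTdp-43-2, and 7.86, 7.82 and 7.38 with shCont. The shTdp-43-2 arrays lay below all shCont arrays, and the shTdp-43-1 arrays overlapped shCont replicate 3. Hk2 fell to 64.9% of the shCont level with shTdp-43-2 (-0.62 ± 0.124, limma adjusted p = 0.00419) and was not called with shTdp-43-1 (-0.37 ± 0.124, limma adjusted p = 0.0825).

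All 25 probe sets of Hk2 were lower with shTdp-43-2 and 19 with shTdp-43-1, over wide ranges of log2 change (-1.50 to -0.005 and -1.17 to 0.39). Taking the median of the probe sets gave -0.41 for shTdp-43-2 (limma adjusted p = 0.0667), so that the call was lost. The difference between the hairpins was not called (-0.26 ± 0.124, limma adjusted p = 0.222).

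Hk1 had values of 11.20, 11.02 and 11.11 with shTdp-43-1, 10.93, 11.01 and 10.84 with shTdp-43-2, and 11.10, 11.25 and 11.02 with shCont. Neither change was called (-0.01 ± 0.0894 and -0.20 ± 0.0894, limma adjusted p = 0.931 and 0.15). The log2 ratio of Hk2 to Hk1, relative to its shCont mean, was -0.35 on each of the 3 shTdp-43-1 arrays, -0.31, -0.63 and -0.34 with shTdp-43-2, and 0.19, 0.01 and -0.21 with shCont. The mean difference of -0.39 between 6 hairpin arrays and 3 shCont arrays had an exact two-sided permutation p = 0.0119, the smallest the design allows (0.0357 adjusted over 3 pairs). With the median of the probe sets it was -0.17 (adjusted p = 0.214), and without any 1 array the adjusted p was 0.0536 or 0.107. Without 1 array fewer arrangements remain, so the smallest possible p is larger.

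**Figure D2:**
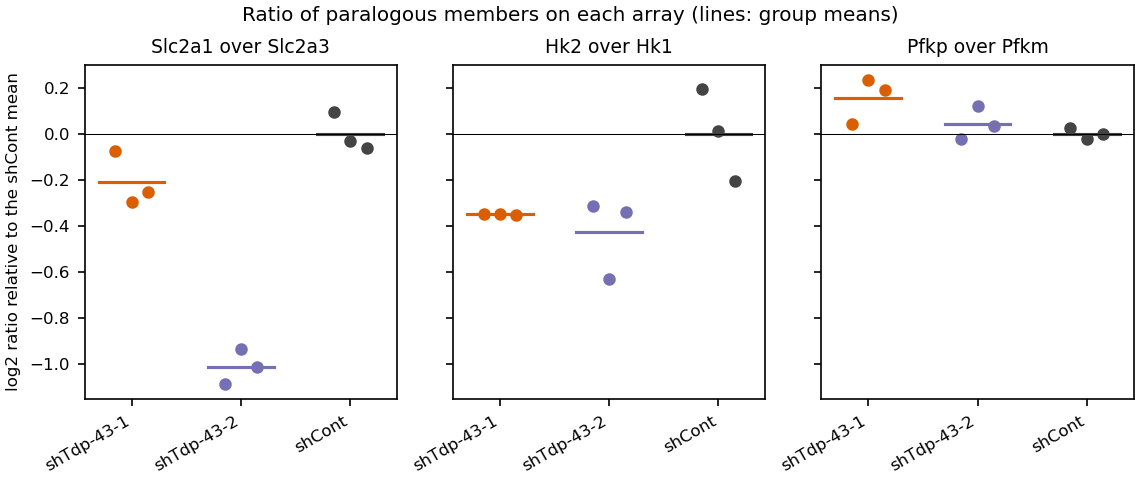
Log2 ratio of the paralogous pairs Slc2a1 over Slc2a3, Hk2 over Hk1 and Pfkp over Pfkm on each array, relative to the mean of the 3 shCont arrays; lines are group means. The first 2 ratios lie below all shCont arrays with either hairpin, and the ratio of Pfkp to Pfkm lies above all shCont arrays with shTdp-43-1 and overlaps them with shTdp-43-2.

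Phosphofructokinase is a tetramer of subunits, of which Pfkp encodes the platelet form and Pfkm the muscle form. Pfkp had values of 10.66, 10.77 and 10.61 with shTdp-43-1, 10.44, 10.49 and 10.39 with shTdp-43-2, and 10.55, 10.36 and 10.34 with shCont. The shTdp-43-1 arrays lay above all shCont arrays, without a call (0.26 ± 0.0854, limma adjusted p = 0.071), and 34 of 35 probe sets were higher there. After centring the arrays on their medians the change was 0.31 (limma adjusted p = 0.03), so the side of the threshold depends on the scaling. With shTdp-43-2 the change was 0.02 ± 0.0854 (limma adjusted p = 0.871), and the hairpins were not called different (-0.24 ± 0.0854, limma adjusted p = 0.0983).

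Pfkm ranged from 11.42 to 11.62 with shTdp-43-1 and from 11.37 to 11.47 with shTdp-43-2, against 11.35 to 11.54 with shCont. Its changes were 0.11 ± 0.0856 and -0.02 ± 0.0856 (limma adjusted p = 0.43 and 0.897), with 95% intervals from -0.08 to 0.29 and from -0.21 to 0.17. The log2 ratio of Pfkp to Pfkm differed by 0.10 between both hairpins and shCont (exact permutation p = 0.143). On the shTdp-43-1 arrays it lay above all shCont arrays, and on the shTdp-43-2 arrays it overlapped them.

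Of the enzymes from aldolase to enolase, Eno2 differed between the hairpins and the rest were not called. Eno2 had values of 10.28, 10.25 and 10.02 with shTdp-43-1, 8.90, 9.10 and 9.05 with shTdp-43-2, and 10.09, 9.78 and 9.80 with shCont. The shTdp-43-2 arrays lay below the arrays of both other groups, while the shTdp-43-1 arrays overlapped shCont. Eno2 fell to 54.5% of the shCont level with shTdp-43-2 (-0.88 ± 0.108, limma adjusted p = 0.000224) and was 123% of it with shTdp-43-1, without a call (0.29 ± 0.108, limma adjusted p = 0.103). The difference between the hairpins was -1.17 ± 0.108 (shTdp-43-2 minus shTdp-43-1, limma adjusted p = 0.000124), where 7.31% of all genes were called lower and 4.22% higher. Tardbp itself differed by 0.03 ± 0.186 between the same arrays (limma adjusted p = 0.956). The mean change of Eno2 over both hairpins, -0.29 (limma adjusted p = 0.0493), averages its unlike values and kept its call in 5 of 18 other settings.

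The 21 probe sets of Eno2 did not all share that fall. With shTdp-43-2, 15 probe sets with shCont levels of 8.99 to 11.9 were lower by log2 changes from -1.60 to -0.89. A further 5 probe sets, with shCont levels of 6.05 to 8.46, changed by -0.02 to 0.12, and probe set 4640602, at 8.26, changed by -0.33. The bright probe set 5422115 read 8.26, 9.18 and 8.04 with shTdp-43-2, against 10.19, 10.19 and 9.92 with shCont. The dim probe set 4603072 read 6.53, 6.38 and 6.41 with shTdp-43-2, against 6.85, 5.84 and 6.27 with shCont. With shTdp-43-1 20 of the 21 probe sets were higher, bright and dim alike. Taking the median of the probe sets put the fall of Eno2 with shTdp-43-2 at -1.25 and the difference between the hairpins at -1.58.

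limma's diffSplice, which sets each probe set against the rest of its gene, called the usage of 6 probe sets of the 10 genes with shTdp-43-2, where 1.24% of all 248701 probe sets were called. They were the 5 dim probe sets of Eno2 that stayed near 0 (relative usage 0.90 to 1.04) and probe set 5003263 of Ldha (0.68, adjusted p = 0.0302). Those 5 had shCont levels of 6.05 to 8.46, and how far such dim probe sets can register a fall was not tested. Their usage therefore does not show that parts of the transcript were retained. It called 0 of their probe sets with shTdp-43-1 and 0 in the mean of both hairpins, where 20 had an unadjusted p under 0.05 in the mean; of all probe sets it called 0.494% and 0.986%. diffSplice assumes 1 variance for all probe sets of a gene. On simulated data in which each probe set had its own variance it made false calls, so these 6 calls are uncertain. Equal variances were not simulated, so the source of the false calls was not tested. With a variance of its own for each probe set, an alternative chosen after seeing the data, limma called 0 of the 202 in any comparison, and 37 were under an unadjusted p of 0.05 with shTdp-43-2. Of all probe sets this called 0.00523% with shTdp-43-1, 0.151% with shTdp-43-2 and 0.0354% in the mean. These shares are for adjusted p-values, so the counts of 20 and 37 at an unadjusted p have no share beside them.

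**Figure D3:**
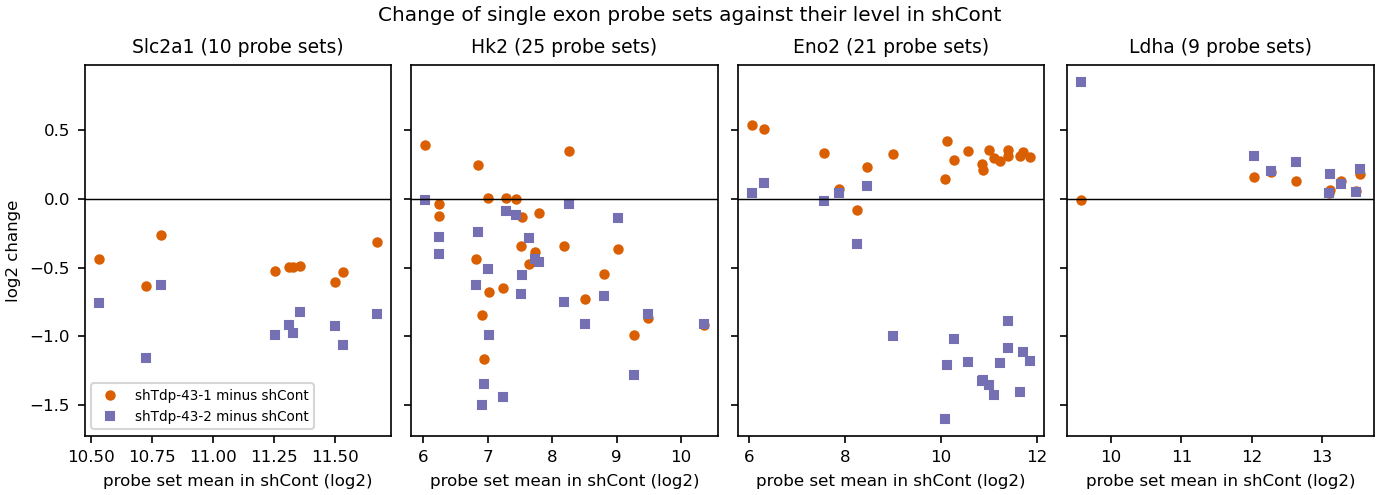
Log2 change of single exon probe sets (vertical axis) against their mean level in shCont (horizontal axis, log2) for Slc2a1, Hk2, Eno2 and Ldha; circles are shTdp-43-1 minus shCont and squares shTdp-43-2 minus shCont. All 10 probe sets of Slc2a1 lie below 0, and in Eno2 the 15 brightest squares lie between -1.60 and -0.89 while the dim ones lie near 0.

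Aldoc had values of 12.07, 12.18 and 12.16 with shTdp-43-1, 11.72, 11.90 and 11.90 with shTdp-43-2, and 11.92, 11.91 and 12.24 with shCont. The shTdp-43-2 arrays lay just below the shCont arrays and the shTdp-43-1 arrays overlapped them. Neither change was called (0.11 ± 0.102 and -0.18 ± 0.102, limma adjusted p = 0.49 and 0.239), nor was the difference between the hairpins (-0.30 ± 0.102, limma adjusted p = 0.0865). All 12 of its probe sets were lower with shTdp-43-2 and 11 were higher with shTdp-43-1. Aldoc is strongest in astrocytes. Of the 9 astrocyte markers limma called 1 lower with shTdp-43-1 (Aqp4) and 4 lower with shTdp-43-2, beside 5.96% and 14.1% of all genes. The part of these markers in the values of Aldoc was not tested.

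Pgk1 ranged from 11.39 to 11.64 with shTdp-43-1 and from 11.47 to 11.69 with shTdp-43-2, against 11.50 to 11.90 with shCont, so that the groups overlapped. Its changes were alike in size (-0.12 ± 0.116 with each hairpin, limma adjusted p = 0.522 and 0.492), and the 95% interval of the difference between the hairpins ran from -0.26 to 0.25. Retrocopies and pseudogenes related to Pgk1 and Ldha exist in the mouse genome, and how far the probe sets tell them apart was not tested.

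Ldha was the member with the highest positive change with shTdp-43-2. Its values were 12.75, 12.67 and 12.58 with shTdp-43-1, 12.85, 12.82 and 12.75 with shTdp-43-2, and 12.58, 12.66 and 12.43 with shCont. The shTdp-43-2 arrays lay above all shCont arrays, and all 9 probe sets were higher. The change was 0.25 ± 0.0855 with shTdp-43-2 (limma adjusted p = 0.0587) and 0.11 ± 0.0855 with shTdp-43-1 (limma adjusted p = 0.436), neither called. After such centring the value with shTdp-43-2 was 0.33 (limma adjusted p = 0.0164), so here too the call depends on the scaling. Of its probe sets, 5003263 stood apart, at 10.87, 10.20 and 10.21 with shTdp-43-2, against 9.84, 9.38 and 9.50 with shCont.

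**Figure D4:**
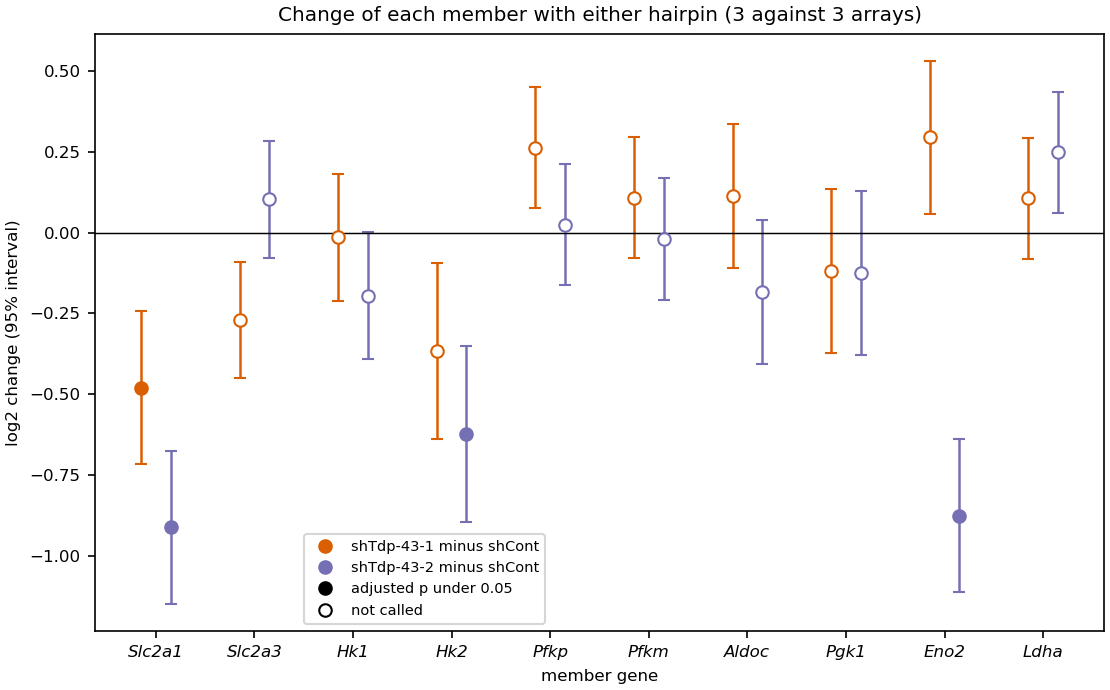
Log2 change of each of the 10 genes with shTdp-43-1 and with shTdp-43-2 against shCont, with 95% intervals from limma (3 arrays against 3); filled points have an adjusted p under 0.05. The filled points are Slc2a1 with both hairpins and Hk2 and Eno2 with shTdp-43-2, all below 0.

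Counted by overlap, with shTdp-43-1 2 of the 10 genes had all arrays below shCont and 1 had all above, where 18.1% and 16.9% of all genes did so. With shTdp-43-2 5 lay wholly below and 1 wholly above, where 23.4% and 15.3% of all genes did so. Over the 6 arrays of both hairpins 1 lay wholly below, Slc2a1, and 0 above, where 10.9% and 7.72% of all genes did so. Between the hairpins limma called 3 of the 10, Slc2a1 and Eno2 lower and Slc2a3 higher with shTdp-43-2, where 11.5% of all genes were called.

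Promoter windows from RefSeq (build GRCm38.p6, 250 bases before to 50 after a start) matched 9 of the 10 genes, in 15 windows; Slc2a3 was not matched. They were searched for the core of the hypoxia response element, ACGTG or GCGTG on either strand, because Slc2a1, Hk2 and Ldha are textbook targets of hypoxia-inducible factor. The core was in 12 of the 15 windows, and 43.8% of all 32851 windows in the table hold it. The windows of 4 genes that differed in their response are shown, 5′ to 3′ on the strand of the gene, with the core in capitals (CACGT and CACGC are its readings on the other strand). They lie at chr4:119108495-119108794 on the plus strand (Slc2a1), chr6:82774405-82774704 on the minus strand (Hk2), chr6:124769624-124769923 on the minus strand (Eno2) and, for the first of the Ldha windows, chr7:46845554-46845853 on the plus strand.
Slc2a1: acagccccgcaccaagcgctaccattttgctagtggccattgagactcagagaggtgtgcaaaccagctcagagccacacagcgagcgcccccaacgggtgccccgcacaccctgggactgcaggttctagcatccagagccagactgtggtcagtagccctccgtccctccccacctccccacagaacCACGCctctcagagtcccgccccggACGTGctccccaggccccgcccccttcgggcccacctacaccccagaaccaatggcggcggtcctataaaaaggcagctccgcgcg
Hk2: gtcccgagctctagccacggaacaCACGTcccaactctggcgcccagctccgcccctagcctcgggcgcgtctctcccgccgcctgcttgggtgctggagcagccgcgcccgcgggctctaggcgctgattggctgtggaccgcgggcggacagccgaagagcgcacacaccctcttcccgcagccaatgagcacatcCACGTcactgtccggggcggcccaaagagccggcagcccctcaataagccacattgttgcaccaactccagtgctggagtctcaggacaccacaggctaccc
Eno2: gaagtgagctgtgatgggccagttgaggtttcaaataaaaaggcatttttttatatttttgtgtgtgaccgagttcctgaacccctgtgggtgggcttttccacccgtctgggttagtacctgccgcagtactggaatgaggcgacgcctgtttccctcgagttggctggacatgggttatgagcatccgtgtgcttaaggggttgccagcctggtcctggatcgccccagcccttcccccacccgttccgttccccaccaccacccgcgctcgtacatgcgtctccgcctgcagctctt
Ldha: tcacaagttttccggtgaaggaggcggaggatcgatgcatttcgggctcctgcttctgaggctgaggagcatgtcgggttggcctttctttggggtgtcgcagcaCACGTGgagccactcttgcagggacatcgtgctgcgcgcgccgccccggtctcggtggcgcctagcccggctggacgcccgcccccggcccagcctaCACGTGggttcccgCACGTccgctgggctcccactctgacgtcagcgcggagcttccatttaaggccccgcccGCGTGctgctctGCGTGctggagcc

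Slc2a1 and Hk2, which fell with shTdp-43-2, each hold the core at 2 positions, counted at its first base from the start: -61 and -36 in Slc2a1, and -226 and -52 in Hk2. Eno2, which fell with the same hairpin, holds none in this window. The Ldha window, of a gene not called, holds 7 matches counted over both strands, since the palindrome CACGTG is read on each. Counted in the same way, the window with most matches held 5 in Hk1, 4 in Pfkp, 3 in Pfkm, 3 in Aldoc and 2 in Pgk1. None of these genes was called with either hairpin. The core was in a window of 8 of the 9 matched genes, so it does not set apart those that fell. A match describes the letters in the window and is not a binding site.

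Genes around the pathway were followed in 9 further lists with 108 genes, of which 100 were tested. With shTdp-43-1 7 of the 100 were called higher and 6 lower, and with shTdp-43-2 5 higher and 17 lower, to be read beside the shares of all genes given above. Their median change was 0.005 and -0.05. Of 15 other glycolytic enzymes, 1 rose with shTdp-43-1 and 1 rose and 2 fell with shTdp-43-2. Pgam2, the muscle form of phosphoglycerate mutase, rose with both, by 0.56 ± 0.0743 (limma adjusted p = 0.00106) and 0.30 ± 0.0743 (0.0134). Its values were low, with means over 6 probe sets of 6.82 with shCont, 7.38 with shTdp-43-1 and 7.12 with shTdp-43-2. These lie close to the table median that probe sets had to reach, so they do not by themselves show that Pgam2 was expressed in these cells. The 2 that fell, named after their values were seen, were Pgam1 (-0.32, called in 11 of 19 other settings) and Eno3 (-0.39, in 16). Among 10 regulators of glycolysis, the AMP-activated kinase subunit Prkaa2 rose with shTdp-43-1 (0.57 ± 0.091) and changed by -0.004 with shTdp-43-2, a called difference between the hairpins (-0.58, limma adjusted p = 0.00226). Pfkfb1, which makes and removes fructose 2,6-bisphosphate, fell with shTdp-43-2 (-0.64 ± 0.158) and was not called with shTdp-43-1 (-0.33 ± 0.158).

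Of 8 genes that move lactate and pyruvate, Slc16a7, which encodes the neuronal monocarboxylate transporter MCT2, rose with both hairpins, by 0.67 ± 0.0836 with shTdp-43-1 and 0.62 ± 0.0836 with shTdp-43-2 (limma adjusted p = 0.00075 and 0.000396). Slc16a1, which encodes MCT1, fell with shTdp-43-2 (-0.57 ± 0.103, limma adjusted p = 0.00249) and changed by -0.05 with shTdp-43-1. Of 12 genes of the pyruvate dehydrogenase complex and its regulation, Pdk1, a kinase that shuts the complex off, fell with both, by log2 -0.55 ± 0.111 (limma adjusted p = 0.00959) and -0.93 ± 0.111 (0.000185). One further gene, Pdhb, a subunit of the complex named after its values were seen, fell with shTdp-43-2 (-0.39). Of 9 glycogen genes, 1 rose and 1 fell with shTdp-43-1 and 1 fell with shTdp-43-2: Ppp1r3c, which brings a phosphatase to glycogen, fell with both (-0.53 ± 0.11 and -0.71 ± 0.11). Of 6 genes of the pentose phosphate pathway limma called 0 with either hairpin, and 2 and 1 had an unadjusted p under 0.05. Of 11 other hexose transporters it called 0 with shTdp-43-1, where 0 had an unadjusted p under 0.05, and 1 higher and 1 lower with shTdp-43-2.

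Of 21 genes for hypoxia-inducible factors, their regulators and other targets, 1 rose and 4 fell with shTdp-43-1, and 7 fell with shTdp-43-2. Among all genes, 5.16% were called higher and 5.96% lower with shTdp-43-1, and 7.76% and 14.1% with shTdp-43-2. The list medians were -0.04 and -0.05, against 0.006 and -0.008 over all genes. Car12, a carbonic anhydrase, fell by log2 -0.89 ± 0.106 with shTdp-43-1 and -0.98 ± 0.106 with shTdp-43-2, and Ddit4, an inhibitor of mTORC1, by -0.34 ± 0.0933 (called in 9 of 19 other settings) and -0.56 ± 0.0933 (in all 19). Bnip3, a mitophagy receptor, fell with shTdp-43-2 (-0.69 ± 0.141) and Egln3, a prolyl hydroxylase of the factors, with shTdp-43-1 (-0.57 ± 0.118). Hif1a, named after its values were seen, fell with both, by log2 -0.26 ± 0.0734 and -0.30 ± 0.0734 (limma adjusted p = 0.0426 and 0.0125, called in 7 and 16 of 19 other settings). Arnt and Ero1a, also named after their values were seen, went the other way. Arnt was called higher in the mean of both hairpins (0.27 ± 0.0817, limma adjusted p = 0.0365), but with neither alone (0.0701 and 0.0755). Ero1a was the gene that rose with shTdp-43-1 (0.32 ± 0.0795, limma adjusted p = 0.0272). Of 8 other regulators of glycolytic genes, Foxo3 rose with both (0.42 ± 0.0928 and 0.52 ± 0.0928), as did the coactivator gene Ppargc1a (0.42 and 0.31, called in 14 and 9 of 19 other settings), and Srebf1 fell with shTdp-43-2 (-0.57 ± 0.0884).

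**Figure D5:**
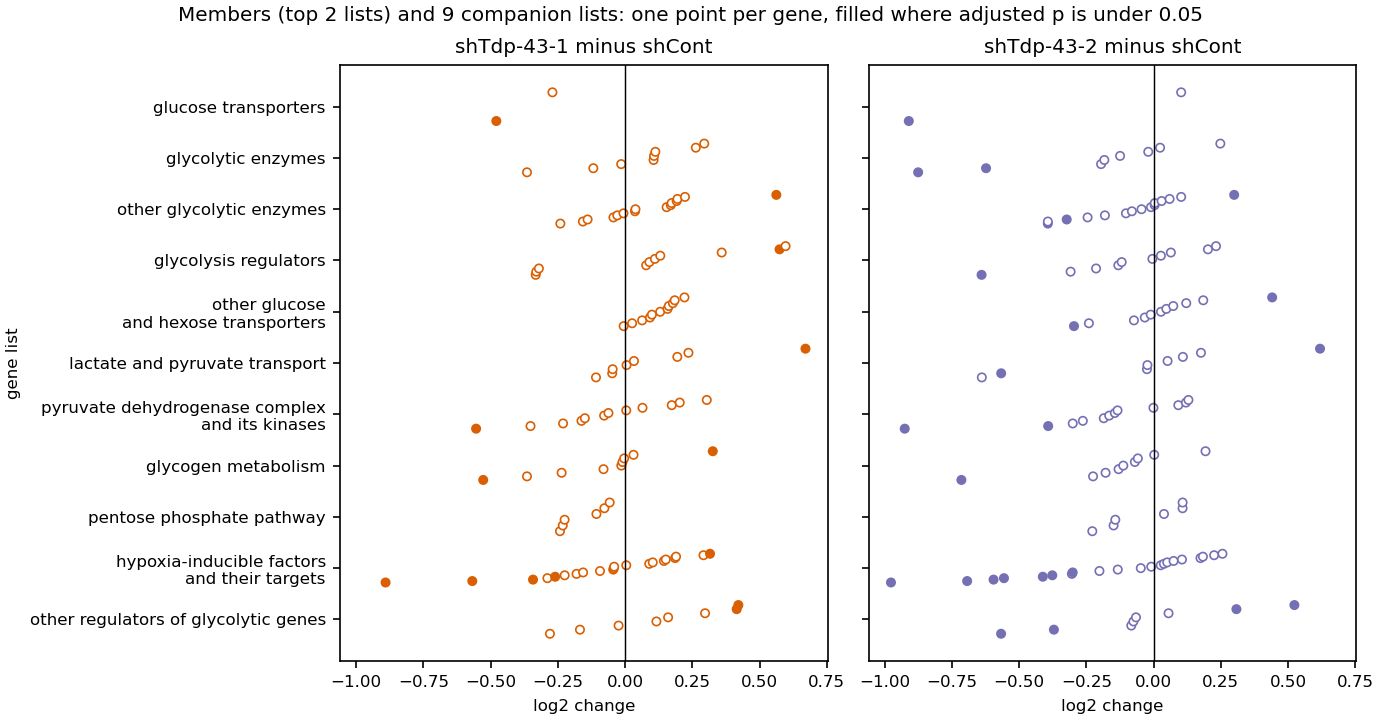
Log2 change of every tested gene of the 10 (the first 2 lists, transporters and enzymes) and of the 9 further lists, with shTdp-43-1 minus shCont on the left and shTdp-43-2 minus shCont on the right; filled points have an adjusted p under 0.05. Most of the points are open, the 6 tested genes of the pentose phosphate pathway all lie below 0 with shTdp-43-1, and filled points at the low end include Slc2a1, Pdk1 and Car12 with both hairpins.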

How the data were processed

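The authors deposited log2 values per exon probe set. Per the submitters' processing notes these were made with RMA in Affymetrix Expression Console, and the build is mm9; no version of the software was found. RMA subtracts background and equalises the distributions of the arrays, so a change shared by most probes is largely removed. Values of 1256831 probe sets were given for 9 arrays. Of these 318760 have 1 gene symbol in the platform annotation, 6684 several and 931387 none; the 10 genes were matched on that symbol, and other old symbols were updated through RefSeq. Genes with at least 3 probe sets at or above the table median were tested. All 9 arrays entered one limma fit (version 3.58.1, R 4.3.3; lmFit and eBayes), with p-values adjusted over all 16770 genes. Exon usage was tested with diffSplice. The ratios of 3 paralogous pairs were tested with an exact permutation test of 6 against 3 arrays; 3 against 3 arrays cannot go below p = 0.1. The number of arrays limits the precision. The tests were run on simulated data with known changes. For diffSplice each simulated probe set had its own variance, and false calls were made there. Alternatives were other dim filters, gene summaries, scalings and variance settings, the replicate number as a block, and leaving out each array.

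The members and lists were chosen with earlier results of these data known. The text names all members, Tardbp, at most 4 called genes of each list by size in the mean of both hairpins, and the 5 genes most like Slc2a1; others are said to be named after their values were seen. Tubb3, Map2 and Syt1 are named as defining markers of neurons. Aqp4, Dcn, Fn1, Nefl, Pdgfrb, Rgs5 and Tek are named as called markers. Slco1a4 and Esam are named, after their values were seen, as the ends of a range. The brightest marker of each list is not singled out, since levels of different probe sets cannot be compared. In the design text the cells are motor neurons, with harvest 11 days after transfection. The sample labels speak of cortical neurons harvested on culture day 11, which is 6 days after infection, and were followed.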

Additional observations from a re-analysis of the deposited data

Results flagged for a closer look

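The change of 3 genes differed between the hairpins by limma's test of that difference (shTdp-43-2 minus shTdp-43-1). Eno2 differed by -1.17, with all shTdp-43-2 arrays below all shTdp-43-1 arrays, and kept its call in all 19 other settings. Slc2a1 differed by -0.431 and Slc2a3 by 0.373, in opposite directions; these calls were kept in 15 and 16 of 19 other settings. Tardbp differed by 0.03 between the same arrays.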

How the results depend on the processing

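Over 19 other settings, 754 of 825 values of Tardbp and the 10 genes kept their direction and their side of the threshold, and no called value changed its sign. Members called with shTdp-43-1 numbered 1, and 2 with arrays centred, with quantile normalization and with the replicate block, 3 with a variance trend, 4 with array weights, and 0 to 2 when 1 array was left out. Members called between the hairpins numbered 3, 1 with the median of the probe sets, and 1 to 4 without 1 array; in the mean of the hairpins 3, and 1 to 3 without 1 array (1 without shCont replicate 1 or 2). With shTdp-43-2 the count was 3, also without any 1 array, 2 with the median of the probe sets, and 4 with arrays centred, with a variance trend and with the replicate block. Eno2 kept its call in the mean in 5 of 18 settings. Over all genes the median of the probe sets gave 1041 calls with shTdp-43-1, 2103 in the mean and 1198 between the hairpins (main 1865, 3234 and 1934), and array weights gave 3293 with shTdp-43-1. Without 1 array these counts ran from 784 to 2224, from 1631 to 3487 and from 964 to 1926, and with shTdp-43-2 from 2484 to 3894 (main 3667).

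Exon probe sets called among the 10 genes with shTdp-43-2 numbered 6, 0 with own variances, 12 with the replicate block and 3 to 9 without 1 array. In the mean they numbered 0, and 2 with each of the 2 weaker dim filters, array weights and the block, and 0 to 2 without 1 array. With shTdp-43-1 they numbered 0, and 2 with either dim filter. The change of the Slc2a1 to Slc2a3 ratio was -0.5831 with the median of the probe sets (adjusted p = 0.179), -0.6108 with the replicate block (0.111) and -0.7179 to -0.5155 without 1 array. That of Hk2 to Hk1 was -0.1657 with the median (adjusted p = 0.214), -0.389 with the block (0.111) and -0.4921 to -0.2925 without 1 array; that of Pfkp to Pfkm was 0.07325 to 0.1243. Fewer arrangements remain in these smaller or blocked designs. For the other losses the cause was not tested.

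Replicate numbers were not taken as pairs: deviations from the group means correlated above 0.1 in 6 of 9 same-numbered pairs (r from -0.383 to 0.593), and 5 of 9 arrays correlated best with their own number. The block moved the call of Slc2a3 with shTdp-43-1 (adjusted p = 0.0327) and of Ldha with shTdp-43-2 (0.0353) past the threshold.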
